A study of Homo sapiens with 2 samples.

Results

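The 171 olfactory receptor (OR) genes of chromosome 11 carried few CHD4 peaks in the human melanoma cell line 501Mel. A peak touched 6 of them, or 3.51% (Wilson 95% interval 1.62% to 7.44%), against 653 of the 1146 other protein-coding genes of this chromosome, or 57.0% (54.1% to 59.8%). Over both sets together the share was 50.04%. The 6 genes were *OR51B5*, *OR51I2*, *OR8J3*, *OR9G1*, *OR4D9* and *OR10V1*. The set holds every protein-coding gene of chromosome 11 in GENCODE release 44, mapped to GRCh37, whose symbol reads OR, a number, letters and a number. The rule reads symbols and positions only, among 20163 protein-coding genes on chromosomes 1 to 22, X and Y. A gene was counted when a peak overlapped its model, from the first to the last annotated base, or the 2000 bp before its start by at least 1 bp.

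OR genes encode odorant receptors, which are G-protein-coupled receptors of the sensory neurons of the nose. Each such neuron expresses 1 receptor gene from 1 allele, and the many others are kept in compact chromatin. The coding sequence of an OR gene usually lies in a single exon, often preceded by short non-coding exons. Class I receptors resemble those of fish, and class II receptors make up the rest of the mammalian repertoire. CHD4 uses ATP to slide nucleosomes along DNA, and its partners in the NuRD complex include histone deacetylases, so the complex is mostly known for repression.

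The series has 1 CHD4 ChIP library and 1 input library, both from paraformaldehyde-fixed and sonicated chromatin of 501Mel, an established line, with no treatment or genetic change named in the labels. The deposited list of 60126 peaks holds 2887 on chromosome 11. It gives neither read counts nor RNA levels, so no peak has a read depth of its own here, and transcription of the OR genes and markers of the melanocyte lineage were not examined here. The ChIP was not repeated, so no replicate spread can be given and nothing was tested between conditions. All comparisons are descriptions, and every interval covers counting error only.

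OR genes are short, so they were set beside other chromosome 11 genes of like length. Among models under 2000 bp, 1 of 97 OR genes had a peak (1.03%, Wilson 95% interval 0.182% to 5.61%), against 10 of 54 other genes (18.5%, 10.4% to 30.8%). From 2000 to under 5000 bp the counts were 1 of 21 (4.76%, 0.846% to 22.7%) and 44 of 120 (36.7%, 28.6% to 45.6%). From 5000 to under 10000 bp they were 3 of 35 (8.57%, 2.96% to 22.4%) and 69 of 173 (39.9%, 32.9% to 47.3%). From 10000 to under 20000 bp no OR gene of 16 had a peak, which allows a share of up to 18.8%, against 114 of 205 other genes (55.6%, 48.8% to 62.2%). The intervals of both sets did not overlap in any of these 4 bands. The remaining pair of OR genes is longer than 20000 bp, and 1 of them, *OR51B5*, had a peak.

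**Figure D1:**
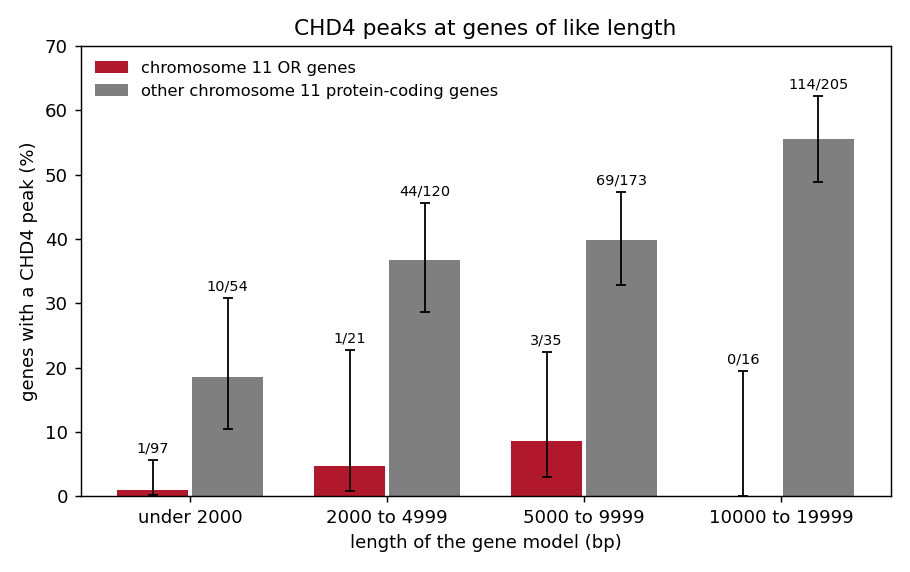
Percentage of genes with a CHD4 peak over the gene model or the 2000 bp before its start, for chromosome 11 OR genes (red) and other protein-coding genes of chromosome 11 (grey), by length of the gene model in bp. Bars are shares, error bars are Wilson 95% intervals and the fractions give the genes with a peak over all genes of the band. OR genes stand at 8.57% or less in each band and other genes between 18.5% and 55.6%.

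When the other genes were weighted to the lengths of the OR genes, 31.9% had a peak (95% interval 17.7% to 46.1%, from the binomial variance in 6 length classes). At this share 54.6 OR genes would have a peak. The difference was −28.4 percentage points (−42.9 to −14.0). In simulated data without a true difference, this weighting also placed other genes above OR genes, so both the count and the gap may be overstated. The shortest class holds 68 OR genes but 5 other genes, and in the longest class the median model is 12578.5 bp in OR genes and 33241 bp in other genes. With the bands of the plot by gene length as classes, a choice made after seeing the data, the weighted share was 29.2% (23% to 35.4%). With the coding span and the 2000 bp before it in place of the gene model, the difference was −10.1 points, and its interval (−23.4 to 3.1) reached across 0. With a Wilson interval in each length class it ran from −34.8 to −3.28. For this span 86 OR genes fall in classes with 10 other genes in all, none with a peak.

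A peak overlapped the coding sequence of 2 OR genes, *OR9G1* and *OR10V1*, or 1.17% of the set (0.321% to 4.16%). Over all protein-coding genes of chromosome 11 the share with a peak over the coding span was 32.1%. That span runs from the first to the last coding base with introns included, and these shares were not matched for length. Weighted to OR lengths, with the 2000 bp before the span counted as well, the share of other genes was 11.3%. A peak lay over the start of 1 OR gene, *OR4D9* (0.585%, 0.103% to 3.24%), against 12.2% of all protein-coding genes of the chromosome. Within 1000 bp of the start on either side the counts were 3 of 171 OR genes (1.75%, 0.598% to 5.03%) and 365 of 1146 other genes (31.8%, 29.2% to 34.6%). The 6 OR genes share 6 peaks: *OR51B5* has 2, of which 1 also touches *OR51I2*.

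*OR9G1*, a class II receptor gene on the plus strand (ENSG00000174914, 56466571 to 56471360), carried the strongest of the 6 peaks. Its fold enrichment, the ChIP signal relative to the background of the peak caller, was 3.88, its −log10 q was 3.90, and 91.4% of the peaks of chromosome 11 had a lower fold enrichment. The peak runs from 56467844 to 56469703 and is 1860 bp long. In the canonical transcript it covers all 915 bp of the coding sequence, 943 bp of non-coding exon and 2 bp of the intron before exon 2. Of the stretches of 50 bases that start in this peak, 96.9% occur once in the genome. The surroundings of the start codon, where the peak begins, are shown with ATG in capitals and on the strand of the gene, at chr11:56467834-56467923 of GRCh37.
*OR9G1* start codon: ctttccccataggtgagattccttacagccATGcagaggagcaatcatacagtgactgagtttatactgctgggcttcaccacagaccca

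*OR10V1*, also of class II (ENSG00000172289, minus strand, 59480389 to 59481318), has a model of 930 bp with 1 exon. Its peak, from 59480413 to 59481017, lies wholly within the coding sequence and covers 65.3% of it. The fold enrichment was 3.0, the −log10 q 1.86, and 34.4% of chromosome 11 peaks were lower. The model of *STX3*, a membrane fusion gene on the other strand, starts at 59480929, within this peak. The start codon of *OR10V1*, which the peak does not reach, is shown from chr11:59481259-59481348 on the minus strand, again with ATG in capitals.
*OR10V1* start codon: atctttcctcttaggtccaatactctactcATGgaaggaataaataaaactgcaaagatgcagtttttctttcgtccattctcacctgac

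*OR4D9* (class II, ENSG00000172742, plus strand, 59278841 to 59288176) had the shortest peak, of 251 bp from 59278641 to 59278891. Relative to the start of the gene model it reaches from −200 to 50 bp. It overlaps the first exon of a non-canonical transcript and ends before the canonical one, which begins at 59279012. The fold enrichment was 2.91, the −log10 q 1.55, and 23.5% of chromosome 11 peaks were lower. The middle of this peak is shown as it is the one at an OR gene start, from chr11:59278706-59278825 on the plus strand. None of the 3 motifs searched below lies in it, so it has no capitals.
*OR4D9* peak centre: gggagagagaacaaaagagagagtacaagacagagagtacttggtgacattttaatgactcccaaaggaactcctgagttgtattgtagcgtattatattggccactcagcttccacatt

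*OR8J3* (class II, ENSG00000167822, minus strand, 55902197 to 55907677) had its peak before the gene. The peak runs from 55909530 to 55910362, and its near edge lies 1853 bp before the start, just inside the limit of 2000 bp. It was enriched 3.23-fold, at a −log10 q of 2.88, and it overlaps *OR8K4P*, an OR pseudogene. Of the 6 peaks it had the lowest GC content, at 31.0%.

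*OR51I2* and *OR51B5* are class I genes of the same neighbourhood. The peak from 5470737 to 5471320 lies in the first intron of *OR51I2* (ENSG00000187918, plus strand, 5470553 to 5477748), 184 to 767 bp after its start, where CHD4 was enriched 3.44-fold at a −log10 q of 2.52. It also lies within the gene model of *OR51B5* (ENSG00000167355, minus strand), which spans 202209 bp from 5324674 to 5526882 and has 7 other OR genes inside it. The other peak of *OR51B5*, from 5450413 to 5450906, was the weakest of the 6, at 2.81-fold and a −log10 q of 1.47. Neither peak overlaps the canonical transcript of *OR51B5*, which has 1 exon. Both also fall within the long models of the fetal and embryonic globin genes *HBG2* and *HBE1*. Without *OR51B5* the count was 5 of 170 OR genes, or 2.94% (1.26% to 6.70%).

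The middle parts of the *OR51B5* and *OR8J3* peaks are shown since each holds a match to a searched motif, in capitals. In *OR51B5* it is the AP-1 motif TGACTCA, and in *OR8J3* the homeodomain motif TAATTA. The first comes from chr11:5450599-5450718 and the second from chr11:55909886-55910005, both on the minus strand.
*OR51B5* peak centre: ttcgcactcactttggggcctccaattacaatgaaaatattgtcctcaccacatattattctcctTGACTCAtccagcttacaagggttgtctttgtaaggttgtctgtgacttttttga
*OR8J3* peak centre: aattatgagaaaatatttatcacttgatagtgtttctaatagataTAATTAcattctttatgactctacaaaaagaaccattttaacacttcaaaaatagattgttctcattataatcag

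**Figure D2:**
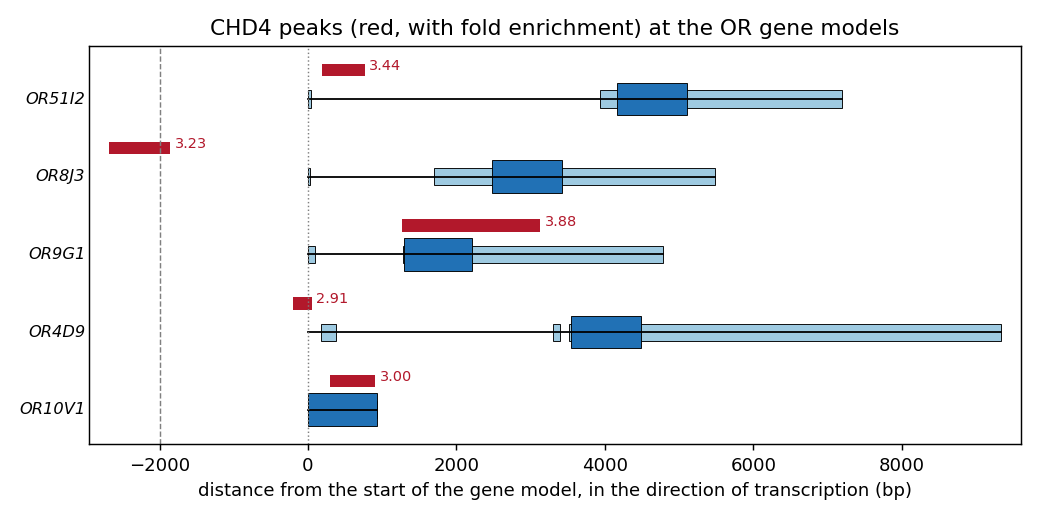
CHD4 peaks (red bars, with their fold enrichment) at 5 OR gene models, against the distance from the start of the gene model in the direction of transcription, in bp. Light blue boxes are exons of the canonical transcript, dark blue boxes the coding sequence, the dotted line the start and the dashed line 2000 bp before it. The peak of *OR9G1* covers the coding sequence, that of *OR10V1* lies inside it, and the others lie in an intron, at the start or before it. *OR51B5* is left out as its model is 202209 bp long.

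Just outside the limit of 2000 bp, peaks lay before the start of *OR8K5*, at 3191 bp with a fold enrichment of 3.10, and of *OR5A2*, at 3505 bp with 3.12. Behind the genes, which the rule does not count, the nearest peak was 598 bp after the end of *OR5M8*, with a fold enrichment of 3.12. Those of *OR4S2* and *OR5G3* followed at 2391 and 3007 bp. Counting 5000 bp before the start raised the share to 4.68% (2.39% to 8.96%), and counting the model alone lowered it to 2.92% (1.26% to 6.66%).

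The peaks at OR genes were of ordinary strength for the chromosome. Their median fold enrichment was 3.12, from 2.81 to 3.88, beside a median of 3.15 over the other 2881 peaks of chromosome 11. Their median length was 594.5 bp, beside 619 bp. A −log10 q of at least 2 was given for 3 of the 6 peaks and for 1421 of the 2887 on the chromosome. These 3 touched 4 OR genes, *OR51B5*, *OR51I2*, *OR8J3* and *OR9G1*, or 2.34% (0.913% to 5.86%), against 36.1% of all protein-coding genes of chromosome 11 at this threshold. A −log10 q of at least 5 was reached by 61 peaks of the chromosome and by 0 of the 6.

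**Figure D3:**
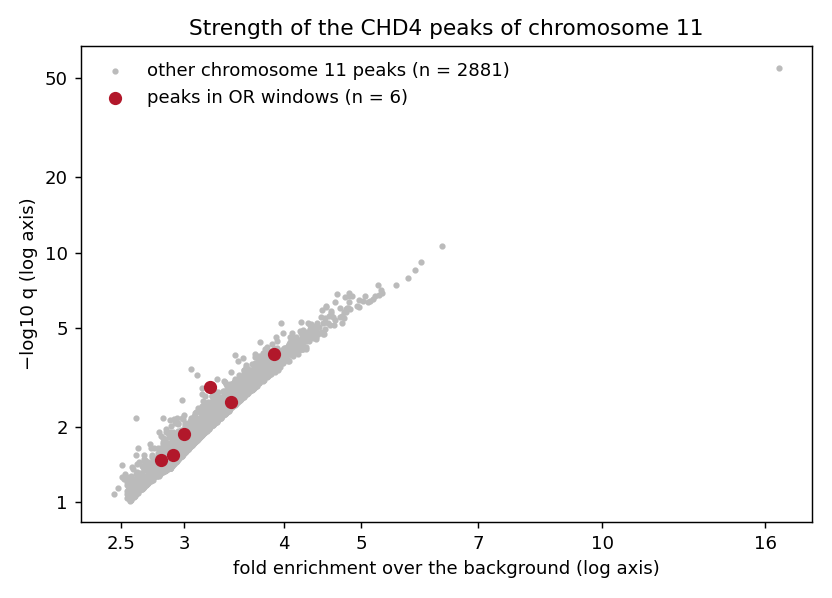
Fold enrichment of CHD4 (x axis, log scale) against −log10 q (y axis, log scale) for each peak of chromosome 11. The 6 peaks in OR windows (red) lie between 2.81 and 3.88 in fold enrichment, within the range of the other 2881 peaks (grey), and the single grey point at the upper right is the peak over *HBB*.

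By receptor class the shares were alike: 2 of 55 class I genes (families 51, 52 and 56), or 3.64% (1.0% to 12.3%), and 4 of 116 class II genes, or 3.45% (1.35% to 8.53%). The 2 class I genes, *OR51B5* and *OR51I2*, share 1 peak, and *OR51B5* is counted through a model of 202209 bp. The members belong to 11 families. The largest, OR5, had 0 of 35 genes with a peak, which allows a share of up to 8.57%, and OR52 had 0 of 27, which allows up to 11.1%. The OR51 family had 2 of 22 genes, OR4 had 1 of 25, OR8 had 1 of 23, OR10 had 1 of 16 and OR9 had 1 of 5. The small families OR56 (6 genes), OR2 (5), OR6 (5) and OR1 (2) had no gene with a peak.

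The OR genes fall into 8 stretches of chromosome 11, when neighbours up to 1 Mb apart are joined and the centromere is kept as a border. These stretches held 93 peaks, or 11.4 per Mb (exact Poisson 95% interval 9.20 to 14.0), against 22.7 per Mb (21.9 to 23.6) on the rest of the chromosome. Within them, 6 peaks fell in OR windows, 42 outside them but in windows of other protein-coding genes, and 45 in neither. Of the 6, the peaks of *OR51B5* and *OR10V1* also overlap models of other coding genes, as given above. Inside the merged OR windows the density was 4.68 per Mb (1.72 to 10.2), over 1.28 Mb. In the windows of the other genes of the stretches it was 18.6 per Mb (13.8 to 24.5), and over the other genes of the whole chromosome 28.9 (27.7 to 30.3). Of the 70 other genes within the stretches, 30 had a peak, or 42.9% (31.9% to 54.5%). Their median model of 13230 bp is longer than the 1074 bp of the OR genes, and weighted to OR lengths their share was 15.5%. With a Wilson interval in each length class it ranged from 11.2% to 33.3%, and the OR share minus it was −11.9 points (−29.9 to −6.16). This value rests on few short genes, since 103 OR genes fall in a class with 10 other genes, none with a peak. The other genes of the stretches include protein-coding OR genes with symbols ending in P, such as *OR51C1P*.

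The stretches differed. The first, from *OR52B4* to *OR10A3* (4388493 to 7963255), holds 67 OR genes and 39 peaks, or 10.9 per Mb (7.76 to 14.9). It includes the beta-globin locus, whose peak over *HBB* has the highest fold enrichment of the list, 16.7, though not its highest −log10 q; that peak lies in no OR window, 24132 bp from *OR51V1*. The fifth, from *OR4A16* to *OR5AK2* (55110677 to 56757318), holds 48 OR genes and 16 peaks, or 9.72 per Mb (5.55 to 15.8). The sixth, from *OR9Q1* to *OR10V1* (57791353 to 59481318), had 37 peaks, or 21.9 per Mb (15.4 to 30.2), a density within the interval of the rest of the chromosome, yet 2 of its 21 OR genes had a peak. The eighth, from *OR6X1* to *OR8A1* (123624288 to 124452838), held 22 OR genes and 1 peak, or 1.21 per Mb (0.0306 to 6.73). No OR gene had a peak there, which allows a share of up to 13.6%. The stretches between 48238362 and 51516211 hold 12 OR genes and no peak, and 76.3 to 82.8% of their runs of 50 bases occur once in the genome.

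With a peak over the gene model counted as a distance of 0, the nearest peak lay at a median of 86460 bp from an OR gene and 119.5 bp from other genes. Distances were not matched for length, and a longer model is nearer to peaks by its size. The median model was 1074 bp in OR genes and 21460 bp in other genes. At 0 bp were 5 OR genes and 564 other genes, and 53.8% of OR genes had a peak within 100000 bp, against 93.2%. Class I genes were farther from a peak, with a median of 214800 bp, than class II genes, with 63340 bp. All 55 class I genes lie in the first stretch. Of them, 26 share the peak-free interval from *OR52B4* to *OR51V1* and 18 that from *OR52P1* to *OR52W1*. The class medians thus describe few places and not independent genes. The most distant, *OR4C46* beside the centromere, lay 744170 bp from a peak. Of the 2886 intervals between neighbouring peaks of the chromosome, 31 held 166 of the OR genes. The interval with the most ran from 4156086 to 5246043 and held 26 OR genes, from *OR52B4* to *OR51V1*, with 8 other genes. A further 18, from *OR52P1* to *OR52W1*, lay in a peak-free interval of 0.609 Mb, and 13, from *OR9Q1* to *OR5B21*, in one of 0.599 Mb. Of the 10 longest peak-free intervals by sequenced bases, 2 held OR genes. The 10 together make up 10.7% of the sequenced bases of the chromosome. They held 9 OR genes, or 5.26% of them, and 10 other genes, or 0.873%.

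**Figure D4:**
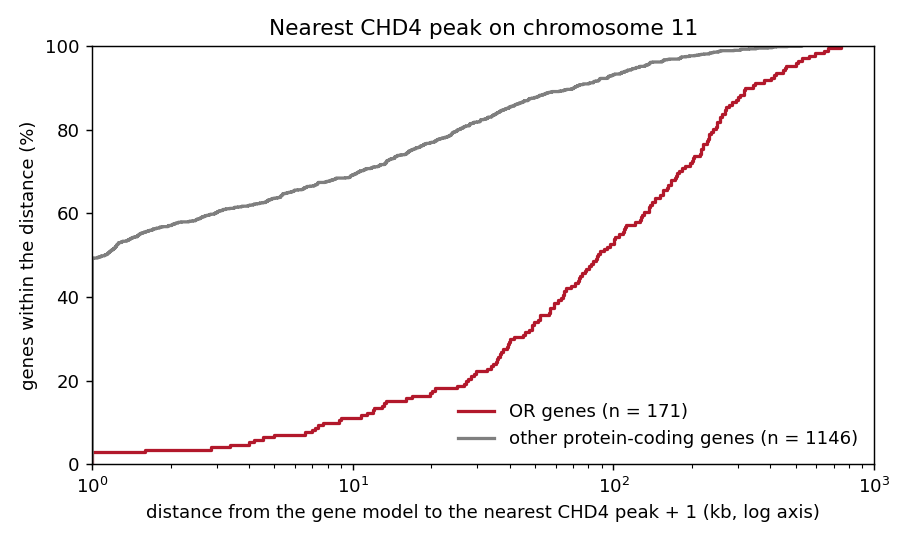
Percentage of genes (y axis) whose gene model lies within a given distance of the nearest CHD4 peak (x axis, kb plus 1, log scale), for the 171 OR genes (red) and the 1146 other protein-coding genes of chromosome 11 (grey). The grey curve starts at 49.2% and the red at 2.92%, and at 100 kb they stand at 93.2% and 53.8%. The sets are not matched for gene length.

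Other sets were counted in the same way. Of the 228 OR genes on other chromosomes, 14 had a peak, or 6.14% (3.69% to 10.0%), an interval that overlaps that of chromosome 11, and over all chromosomes 58.3% of protein-coding genes had one. Of 192 OR pseudogenes of chromosome 11, 9 had a peak, or 4.69% (2.49% to 8.67%). The 6 protein-coding OR genes whose symbols end in P, which the rule leaves out, had none. They count among the 1146 other genes of the comparisons. Among clustered families of chromosome 11, the MS4A genes, which encode membrane proteins, had 7 of 16 with a peak (43.8%, 23.1% to 66.8%), with a median model of 18667 bp. The MMP genes, which encode matrix metalloproteinases, had 3 of 10 (30.0%, 10.8% to 60.3%) at a median of 12492 bp. The KRTAP5 genes, which encode keratin-associated proteins of hair and are as short as OR genes at a median of 1173 bp, had 0 of 11, which allows up to 27.3%.

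Sequence composition differed between the sets, and median mappability was no lower in OR windows. The GC content of the OR windows had a median of 38.1%, against 47.4% for other genes. In the promoter, taken as 250 bases before to 50 bases after the start, it was 37.7% against 60.3%. The ratio of observed to expected CpG there had a median of 0.120 against 0.669, and exceeded 0.6 in 4 OR genes (*OR52N2*, *OR56A3*, *OR5D18* and *OR10Q1*) against 624 other genes. None of the 6 OR genes with a peak is among these 4. Other genes whose promoter CpG ratio was no higher than the 90th percentile of the OR genes, 0.295, had a peak in 125 of 310 cases, or 40.3% (35% to 45.9%). Weighted to OR lengths their share was 15.2% (12.7% to 37.1%, with a Wilson interval in each length class), and the OR share minus it was −11.7 points (−33.7 to −7.03). Here 85 OR genes fall in a class with 5 other genes, none with a peak. The authors kept reads with a single best position, so repeated sequence yields few reads. The share of 50-base stretches found once in the genome had a median of 98.4% in OR windows and 96.1% in those of other genes. It was at least 90% in 150 OR genes, of which 5 had a peak, or 3.33% (1.43% to 7.57%), against 601 of 1025 other genes, or 58.6%. In the coding span it fell under 50% in *OR51A4*, *OR51A2*, *OR8B2* and *OR8B3*, which have near-identical copies. The part of GC and CpG content in the low share was not tested.

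Peak density also rose with GC content along the chromosome, so tiles of 100 kb were compared within GC bands. Below 36% GC, the 9 tiles with OR genes had 6.67 peaks per Mb (exact Poisson 95% interval 2.45 to 14.5) and the 153 tiles without had 9.41 (7.94 to 11.1). From 36 to 38% the values were 5.46 (2.82 to 9.53) in 22 tiles and 12.7 (11.3 to 14.3) in 235. From 38 to 40% they were 7.10 (4.14 to 11.4) in 24 and 21.0 (19.0 to 23.1) in 194. From 40 to 42% they were 14.4 (7.69 to 24.7) in 9 and 26.3 (23.8 to 29.1) in 145. At 42% and above, 2 tiles with OR genes had 5 peaks, with an interval of 8.12 to 58.3 per Mb, and 520 tiles without had 30.9 (29.4 to 32.5). The intervals were apart from 36 to 40% GC and overlapped in the other bands. They take peaks as independent. From 38 to 40% GC, though, 17 peaks lay in 7 of the 24 tiles with OR genes. In tiles without OR genes, 406 peaks lay in 100 of 194. Where peaks lie together the intervals are too narrow, so their separation is a description only.

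**Figure D5:**
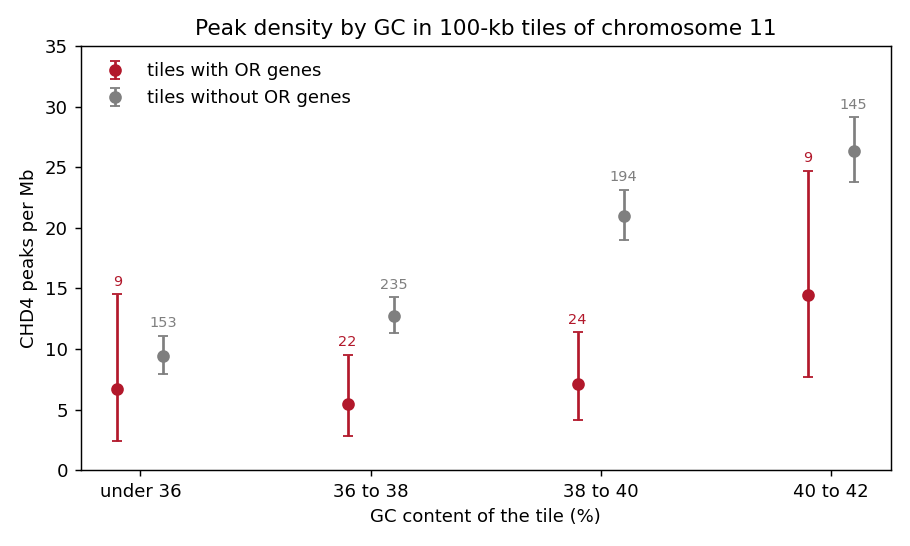
CHD4 peaks per Mb (y axis) in 100-kb tiles of chromosome 11 by GC content of the tile (x axis, %), for tiles that hold the middle of an OR gene (red) and tiles that do not (grey). Points are densities, error bars exact Poisson 95% intervals and the small figures the number of tiles. From 38 to 40% GC the densities are 7.10 and 21.0 per Mb.

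Promoters of OR genes are known for binding sites of EBF factors and homeodomain proteins, and AP-1 is a common factor of enhancers. Each motif was searched on both strands of the 300 bases around the start. The homeodomain motif TAATTA occurred in 35 of 171 OR promoters (20.5%, 15.1% to 27.1%) and in 44 of 1146 others (3.84%, 2.87% to 5.11%). The EBF core CCCNNGGG occurred in 15 OR promoters (8.77%, 5.39% to 14.0%) and in 248 others (21.6%, 19.4% to 24.1%). The AP-1 motif TGACTCA occurred in 5 (2.92%, 1.26% to 6.66%) and 50 (4.36%, 3.32% to 5.71%). OR promoters are richer in A and T, and motif counts follow base composition. Over their whole length, 2 of the 6 OR peaks held TAATTA (*OR8J3* and *OR9G1*), 2 held TGACTCA (*OR51B5* and *OR8J3*) and 0 held the EBF core, beside 22.7%, 17.2% and 20.6% of all chromosome 11 peaks. A match is a run of letters and no measured site.

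Genes that act with the receptors were counted from a list of 24. A peak was present at 13, or 54.2% (35.1% to 72.1%), and 58.3% of all protein-coding genes had one, so the share of the list was near the background. The median model was 101069 bp with a peak and 10819 bp without, and the values of single genes are given as a description. Among the transduction genes, *GNAL*, the G protein alpha subunit of olfactory neurons, had 13 peaks over 196422 bp with a fold enrichment of up to 4.90. *ADCY3*, the adenylate cyclase of the odour response, had 1 peak at 2.88, *SLC24A4*, a sodium-calcium exchanger, had 3 of up to 4.75, and *GNB1*, a G protein beta subunit, had 4 of up to 3.36. On chromosome 11 itself, *CNGA4*, a cation channel subunit that lies within the first stretch, had 1 peak within 1000 bp of its start at 2.65, while *OMP*, the olfactory marker protein gene of 492 bp, had none. The channel genes *CNGA2*, *CNGB1* and *ANO2* and the receptor transport genes *RTP1* and *RTP2* had none either, nor did *GNG13*. *REEP1* and *STOML3*, which encode membrane-associated proteins, had 1 peak each, at 2.68 and 2.72.

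Among the regulators of OR choice in the list, *EBF1* had 8 peaks of up to 3.58, *EBF3* had 6 of up to 3.44 and *EBF4* had 1 at 4.26. *LDB1*, which bridges distant OR enhancers, had 2 of up to 3.34, 1 of them over its start. *KDM1A*, a histone demethylase, had 4 of up to 3.37, and *CBX5*, which encodes a heterochromatin protein, had 3 of up to 3.61. *EBF2*, *LHX2*, *EMX2* and *LBR*, the last a nuclear envelope protein, had none.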

How the data were processed

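CHD4 ChIP-seq in 501Mel cells comprised 1 ChIP and 1 input library. Per the paper's methods and the labels, reads of 50 bases were aligned by the authors with Bowtie 1.0.0 (hg19), those with 1 best position were kept, and broad peaks were called with MACS2 2.1.1.20160309. The reporting summary of the study names another Bowtie version and a stricter q than the lowest −log10 q in the list, 1.0. Whether the input served as the control is not given in the sources used here. The deposited list gives a score (the whole part of 10 times the −log10 q, apart from 2 peaks), the authors' fold enrichment (a ratio over the background) and the −log10 q. A column of −log10 p, 1 in number, was not used. It holds no comparison between conditions and no counts.

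Positions were counted from 1 and compared with GRCh37 and GENCODE 44 mapped to it. Shares have Wilson 95% intervals, densities exact Poisson intervals, and a count of 0 a limit of 3 counts. The Poisson form takes peaks as independent, so it is too narrow where peaks lie together. Other genes were weighted in classes cut at the deciles of OR lengths, where classes with under 5 other genes were joined to the next. A 50-base stretch was unique if found once in the genome on either strand. The estimates were tested on simulated data. In that test the weighted share of other genes came out above that of OR genes without any true difference, more so with these classes than with fixed length bands, since lengths differ within a class. The binomial variance is 0 in a class without a peak, so a Wilson interval in each class, combined by squares, was added. The members and lists were chosen with earlier results of these data known. Genes named are those with a peak over the coding span or start, those of the strongest peaks at OR genes and those of the olfactory list with a peak; others were named after their values were seen. Alternatives changed the window, threshold, gene model, overlap, mappability and comparison genes. Python 3.11.15, numpy 2.4.6, pandas 2.3.3, scipy 1.17.1, numba 0.67.0, pysam 0.24.0, matplotlib 3.10.9 and samtools 1.23.1 were used.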

Additional observations from a re-analysis of the deposited data

How the results depend on the processing

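No paired analysis was possible because the ChIP has 1 library and the results come from no test. In 15 of 15 alternatives in peaks, genes or classes the OR share lay below the weighted share of other genes. The binomial interval of the difference reached across 0 for the coding span with the 2000 bp before it. There 1.17% of OR genes and 11.3% of other genes had a peak, a difference of −10.1 points. For this span 86 OR genes fall in classes with 10 other genes in all, none with a peak. The Wilson interval in each class reached across 0 at a −log10 q threshold of 5 (−19.3 to 0.357), where the binomial one gives the OR count of 0 no variance. For the reported difference the Wilson form ran from −45.7 to −20.5. At that threshold, 0.0% of OR genes had a peak in their window or coding sequence and their density was 0.0 per Mb, against 1.91% and 0.71 per Mb for other genes, a difference of −1.91 points; no median of OR peaks can be given there, and that of other peaks was 4.75. At a threshold of 2 the density at other genes was 14.3 per Mb and the median fold enrichment of other peaks 3.48. Without the bases before the start, the weighted share was 17.4%, the difference −14.5 points and the density 27.2 per Mb. In that setting 68 OR genes fall in a class with 5 other genes, none with a peak. The Wilson form of that difference ran from −32.1 to −10.3. Joining peaks within 1000 bp gave 25.7 per Mb and a median of 3.17. Of the alternatives added after seeing the data, other genes inside the stretches gave 15.5%, −11.9 points and 18.6 per Mb, and those with a low promoter CpG ratio 15.2%, −11.7 points and 26.7 per Mb. Stricter thresholds leave fewer peaks by construction, and the cause of the other shifts was not tested. The remaining 65 of 87 values stayed within the interval of the reported value. A list without reads or replicates sets no limit on weaker occupancy.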
